A study of Mus musculus with 8 samples.

Results

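The mitochondrial ribosomal proteins were followed here as the rows of the deposited expression table whose symbol begins with Mrpl or Mrps and a digit. There were 78 such genes among 24940 rows, and all 78 passed the filter of at least 1 RPKM in at least 2 of 8 libraries, as 11040 genes did. RPKM is the number of sequenced tags of a gene divided by its exon length in kilobases and by the depth of the library. The 78 genes are protein-coding, though the row of Mrpl48 is listed under a noncoding RefSeq transcript. Each gene is listed once, and they lie on 17 chromosomes, with 11 on chromosome 11 and 8 on chromosome 17. By textbook annotation 51 of them encode proteins of the large subunit (31 with a bacterial homologue, 20 found only in mitochondria) and 26 of the small subunit (17 and 9). The last gene, Mrps36, carries a ribosomal name but encodes a subunit of the 2-oxoglutarate dehydrogenase complex. Mrps30 and Mrps18a bear small-subunit names and were counted with the large subunit, where their proteins sit.

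RNA was sequenced from bone marrow-derived macrophages of C57BL/6 mice aged 6 to 8 weeks, in 4 groups of 2 libraries each. The groups were TMBIM6sh with RANKL, TMBIM6sh without RANKL, NCsh with RANKL and NCsh without RANKL, where the first name is the short hairpin RNA the cells carried. The culture medium of every group held 30 ng/ml M-CSF, on which macrophages depend, and RANKL, the cytokine that turns macrophages into bone-resorbing osteoclasts, was given at 100 ng/ml for 24 h. The title of the series concerns TMBIM6 deficiency, bone loss and osteoclast formation, so the hairpin comparisons ask what differs with loss of Tmbim6, an endoplasmic reticulum membrane protein, and the RANKL comparisons what differs with the cytokine. The protocol text of the samples is the same for all and mentions RANKL, so its absence was read from the titles. The labels do not spell out NCsh. With 1 hairpin on each side, the consequences of losing Tmbim6 and off-target differences between hairpins cannot be told apart. Nor do the labels say whether duplicates came from separate animals or cultures, and the p-values measure the spread between these libraries.

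Mitochondrial ribosomes translate the few messenger RNAs encoded by mitochondrial DNA, which specify core subunits of the respiratory chain. Their RNA is made in the mitochondrion, while their proteins are encoded in the nucleus, made in the cytosol and imported. Proteins with bacterial homologues line the catalytic centre, the exit tunnel and the stalks, and the mitochondria-specific proteins lie mostly on the surface of the particle. Macrophages that become osteoclasts are known for a rise in mitochondrial mass and respiration.

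Libraries held 25475000 to 28590000 tags, and each mitochondrial ribosomal protein gene had 104 to 1372 tags per library. Of the tags in exons, 0.172% to 0.198% came from the 78 genes. Tmbim6 checked the labels, with 10.0 and 10.5 RPKM in TMBIM6sh with RANKL, 11.1 and 11.7 RPKM in TMBIM6sh without RANKL, 309 and 321 RPKM in NCsh with RANKL and 330.0 and 334 RPKM in NCsh without RANKL. All 9 macrophage markers passed the filter, and 4 of 8 osteoclast markers did (Mmp9, Acp5, Atp6v0d2 and Dcstamp). The osteoclast markers summed to 84.1 to 145 RPKM per library, while Ctsk, Calcr and Oscar were under 0.1 RPKM in every library. Of the stromal markers 3 of 6 passed (Runx2, Col1a1 and Col1a2), with a sum of 3.885 to 4.843 RPKM per library. Of the neutrophil markers 1 of 7 passed (S100a8). The T and B cell markers (0 of 5 tested) and erythroid markers (0 of 4 tested) were at or near 0. In the bulk libraries, fewer cells of a type and less RNA per cell cannot be told apart.

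The 78 transcripts were of middling abundance and close to each other. Their mean over the 8 libraries ran from 2.49 RPKM for Mrpl17 to 56.3 RPKM for Mrps21, a 22.6-fold range, with a median of 17.9 RPKM, against a median of 9.29 RPKM over all genes tested and 444 RPKM over 87 cytosolic ribosomal protein genes. Of the 78 genes, 53 had a mean between 8 and 32 RPKM. The large-subunit genes had a median of 18.3 RPKM and the small-subunit genes of 15.8 RPKM. After Mrps21, a small-subunit protein related to bacterial S21, the highest means were those of Mrpl33 (54.4 RPKM), Mrpl52 (47.5 RPKM), Mrps18c (44.3 RPKM), Mrpl23 (42.0 RPKM) and Mrpl42 (39.6 RPKM). At the low end, Mrpl17 was followed by Mrpl41 (4.49 RPKM), Mrpl35 (4.91 RPKM), Mrpl19 (5.16 RPKM), Mrps31 (5.51 RPKM) and Mrpl48 (6.21 RPKM). The levels of some of these genes are uncertain. Mrpl23 and Mrpl48 have named pseudogenes, and the row of Mrpl48 is listed under a noncoding transcript. Mrpl19 and Mrpl48 overlap genes on the opposite strand, Gcfc2 over 1257 bases and Rab6a over 716 bases. Mrpl17 was low per length and not in tags. It had 277 to 655 tags per library over an annotated exon length of 6707 bases, against a median exon length of 1048 bases for the 78 genes and 2651 bases for all genes tested.

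Bacterial S18 has 3 mammalian homologues among the genes. Mrps18c, the one in the usual S18 place of the small subunit, averaged 44.3 RPKM over all libraries. Mrps18a, of the large subunit, averaged 33.4 RPKM and Mrps18b, also of the small subunit, 22.7 RPKM. Their ranges over the 8 libraries were 39.5 to 49.0 RPKM, 27.7 to 39.2 RPKM and 19.6 to 27.5 RPKM, so the 3 ranges did not overlap.

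**Figure D1:**
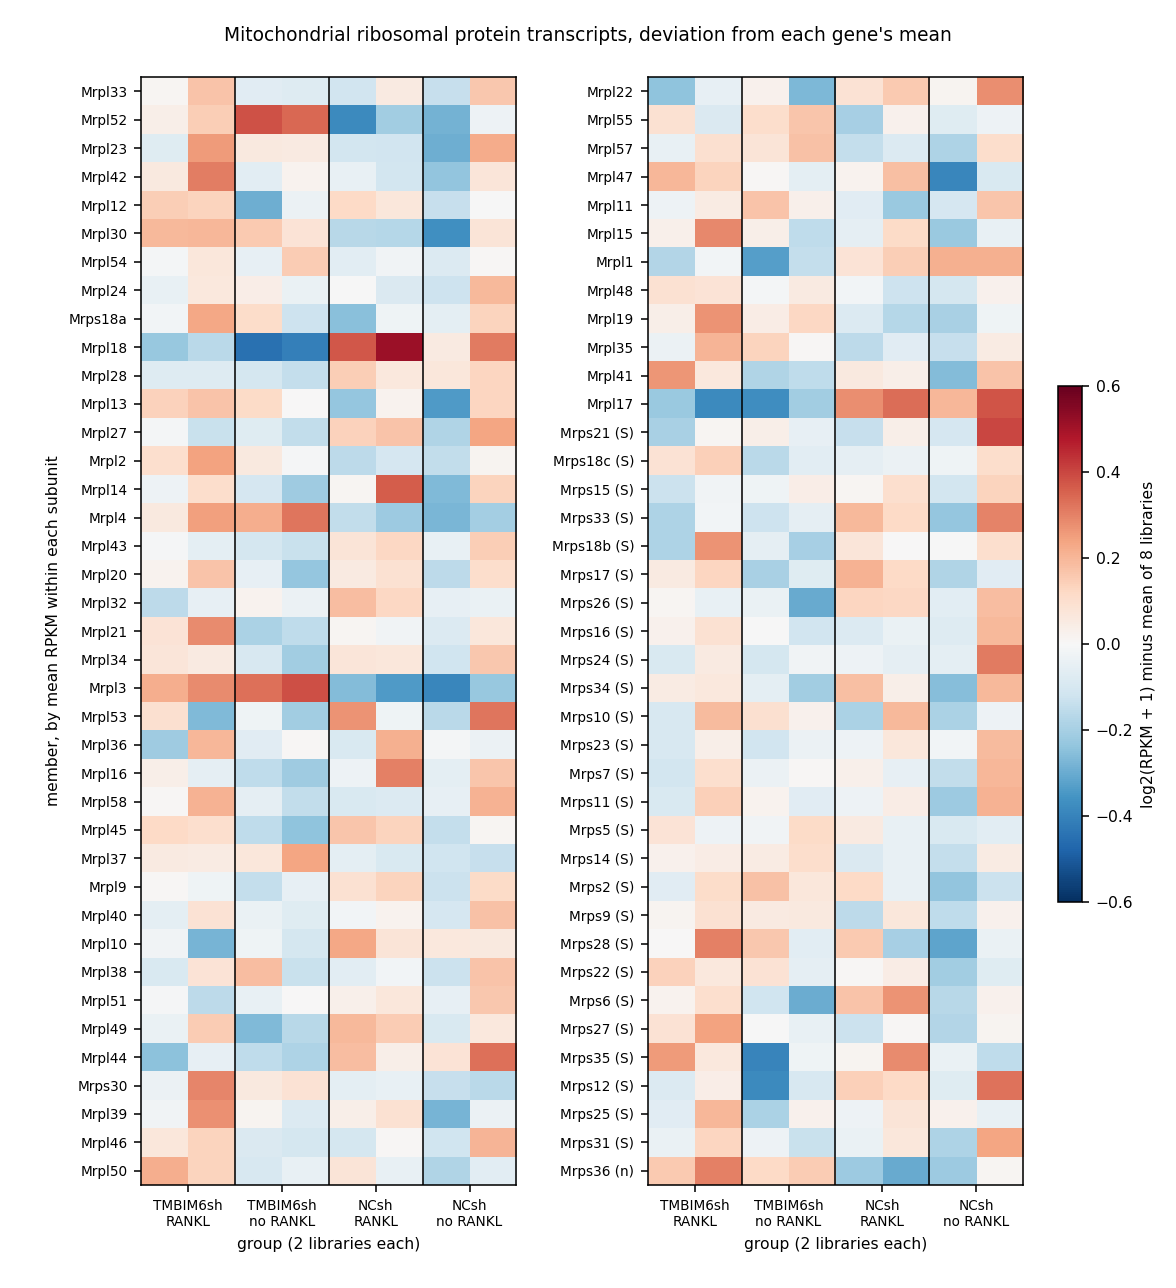
Each row is 1 of the 78 genes, ordered by mean RPKM within large-subunit genes and then small-subunit genes (S) and Mrps36 (n), and each column is 1 library; colour is log2(RPKM + 1) minus the mean of the gene over the 8 libraries. Most rows are pale, Mrpl3, Mrpl4 and Mrpl52 are pale to deep red in the 4 TMBIM6sh columns, Mrpl17 and Mrpl18 are blue there, and the last column, NCsh without RANKL library 2, is redder than its duplicate.

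Promoters of nuclear genes for mitochondrial ribosomal proteins often carry words bound by NRF1, ETS-family factors and YY1. RefSeq promoter windows, from 250 bases before to 50 bases after a start (GRCm38.p6), were matched by symbol for 69 of the 78 genes, with 75 windows. The NRF1 word GCGCANGCG stood in 21.3% of the 75 windows, against 14.2% of 10886 windows of tested genes and 6.2% of 32851 windows of all genes, both strands read. The ETS word CCGGAAG stood in 34.7%, against 19.0% and 8.9%, and the YY1 word AAGATGGCG in 10.7%, against 3.3% and 1.4%. The E-box CACGTG (9.3%, against 10.6% and 7.2%) and the word CCAAT (40.0%, against 37.9% and 37.4%) stood in shares close to those of other genes.

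The sequences below are the 150 bases before the start of 5 genes that differed in the same direction between hairpins with and without RANKL (values below), each read 5′ to 3′ on the strand of its gene, with any of the 5 words in capitals. The stretch of Mrpl3 is chr9:105053118-105053267 (plus strand), that of Mrpl52 chr14:54426759-54426908 (plus), that of Mrpl17 chr7:105811088-105811237 (minus), that of Mrpl18 chr17:12916092-12916241 (minus) and that of Mrpl28 chr17:26123353-26123502 (plus). The last sequence, at chr7:78783090-78783130, is all that lies between the starts of 2 members, Mrpl46 on the minus strand and Mrps11 on the plus strand, printed on the plus strand.
Mrpl3: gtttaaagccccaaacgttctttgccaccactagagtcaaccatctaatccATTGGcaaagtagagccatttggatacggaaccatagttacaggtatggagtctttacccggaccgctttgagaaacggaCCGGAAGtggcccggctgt
Mrpl52: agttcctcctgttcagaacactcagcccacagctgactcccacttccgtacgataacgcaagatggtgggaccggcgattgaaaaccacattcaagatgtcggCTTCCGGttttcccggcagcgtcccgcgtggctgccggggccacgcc
Mrpl17: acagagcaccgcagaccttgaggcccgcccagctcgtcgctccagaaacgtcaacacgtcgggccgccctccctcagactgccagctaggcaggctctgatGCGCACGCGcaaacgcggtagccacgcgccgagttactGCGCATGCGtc
Mrpl18: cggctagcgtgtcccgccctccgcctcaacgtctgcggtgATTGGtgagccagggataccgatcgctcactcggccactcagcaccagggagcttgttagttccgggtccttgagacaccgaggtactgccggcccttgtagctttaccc
Mrpl28: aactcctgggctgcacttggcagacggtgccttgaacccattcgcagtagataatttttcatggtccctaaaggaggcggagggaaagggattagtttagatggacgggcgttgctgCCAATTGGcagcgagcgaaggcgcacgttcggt
Mrpl46 to Mrps11: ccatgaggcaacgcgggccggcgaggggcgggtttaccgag
Within these stretches the ETS word lies 19 to 13 bases before the start in Mrpl3 and, on the other strand, 47 to 41 bases before it in Mrpl52. Mrpl17 and Mrpl18 hold it too, in the rest of their windows, so it stands in genes that were higher and in genes that were lower with the TMBIM6 hairpin. Mrpl3 also has CCAAT on the other strand (ATTGG) 99 to 95 bases before the start. Mrpl17 holds the NRF1 word at 49 to 41 and again at 11 to 3 bases before the start. Mrpl18 has ATTGG at 110 to 106 bases, and Mrpl28 has CCAAT at 33 to 29 bases overlapping ATTGG at 30 to 26 bases. None of the 5 words lies in the 41 bases between Mrpl46 and Mrps11.

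Without RANKL, the TMBIM6sh libraries had higher transcript levels of 5 of the 78 genes and lower levels of 5, while the set as a whole stayed near its level in NCsh. Calls used limma on log2(RPKM + 1) over all 11040 genes at a Benjamini-Hochberg adjusted p of 0.05. Of all genes tested 10.4% were called higher and 13.8% lower, and the share of the 78 genes, 6.4% in each direction, was below both. The median difference of the 78 genes was -0.06 on the log2 scale, against -0.02 over all genes and -0.09 over the cytosolic ribosomal protein genes, and 32 of the 78 lay above 0. In all 10 called genes the 4 libraries did not overlap between hairpins. The same held for uncalled members such as Mrpl32 (adjusted p = 0.724 by limma). Lack of overlap is therefore no added evidence for a call, here or below.

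Mrpl3, the homologue of bacterial L3 near the catalytic centre, had the largest rise. It stood at 24.5 and 25.6 RPKM in TMBIM6sh libraries without RANKL, against 14.5 and 16.3 RPKM in NCsh libraries without RANKL. Every TMBIM6sh value was above every NCsh value, and the difference was 0.67 ± 0.074 on the log2 scale (SE, adjusted p = 0.000246 by limma). Mrpl52, a mitochondria-specific large-subunit protein, had 61.0 and 59.6 RPKM in TMBIM6sh and 38.1 and 45.6 RPKM in NCsh (log2 difference 0.52, adjusted p = 0.00307). Mrpl4, homologous to bacterial L4, which lines the peptide exit tunnel, had 24.0 and 25.8 RPKM in TMBIM6sh, against 16.8 and 17.7 RPKM in NCsh (0.51, adjusted p = 0.00157). The other 2 rises were smaller. Mrps2, the homologue of bacterial S2 and the single small-subunit gene called, averaged 13.98 ± 0.810 RPKM in TMBIM6sh and 11.1 ± 0.650 RPKM in NCsh (SD, n = 2 each; 0.30, adjusted p = 0.0365). Mrpl37, mitochondria-specific, averaged 19.9 ± 1.74 RPKM in TMBIM6sh and 16.1 ± 0.176 RPKM in NCsh (SD, n = 2 each; 0.28, adjusted p = 0.0176).

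The 5 lower genes were all of the large subunit. Mrpl18, the homologue of the L18 protein of the central protuberance, had 21.2 and 21.7 RPKM in TMBIM6sh, against 30.3 and 36.4 RPKM in NCsh (-0.61 ± 0.0886, SE, adjusted p = 0.00108). The TMBIM6sh duplicates were close together and below both NCsh values. Mrpl17, homologous to bacterial L17 at the tunnel exit, had 1.63 and 1.95 RPKM in TMBIM6sh and 2.91 and 3.42 RPKM in NCsh (-0.58, adjusted p = 0.00681). Mrpl1, whose bacterial homologue forms the L1 stalk, had 4.87 and 5.67 RPKM in TMBIM6sh, against 7.55 and 7.55 RPKM in NCsh (-0.45, adjusted p = 0.00699). Mrpl44, a mitochondria-specific protein with a ribonuclease III fold, averaged 11.9 ± 0.212 RPKM in TMBIM6sh and 15.8 ± 2.03 RPKM in NCsh (SD, n = 2 each; -0.37, adjusted p = 0.0248). Mrpl28, the homologue of bacterial L28, averaged 26.9 ± 0.569 RPKM in TMBIM6sh and 31.6 ± 1.01 RPKM in NCsh (SD, n = 2 each; -0.22, adjusted p = 0.0256).

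The counts moved with single libraries of both hairpins. The count of lower genes was 18 of 78 without NCsh library 1 (13.7% of all genes), 3 without NCsh library 2 (10.2%), 1 without TMBIM6sh library 1 (7.14%) and 3 without TMBIM6sh library 2 (7.85%). The count of higher genes was 8 without NCsh library 2 (8.88% of all genes) and 3 without TMBIM6sh library 2 (4.79%). The call of Mrpl17 was lost without TMBIM6sh library 1 (adjusted p = 0.059), as was that of Mrpl1 (0.0667). Those of Mrpl28 and Mrpl44 were lost without NCsh library 2 or either TMBIM6sh library (adjusted p up to 0.159 and 0.13), that of Mrpl37 without library 2 of either hairpin (up to 0.16), and that of Mrps2 without NCsh library 1 or either TMBIM6sh library (up to 0.208).

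With RANKL the picture was similar, with 6 genes higher and 5 lower in TMBIM6sh than in NCsh libraries. Among all genes tested 8.93% were higher and 19.7% lower. The median difference of the 78 genes was 0.04, against -0.07 over all genes and 0.08 over the cytosolic ribosomal protein genes, and 49 of the 78 lay above 0. When libraries were scaled by the median ratio, the members split 12 higher and 3 lower and all genes 14.3% higher and 15.2% lower. None of the 26 small-subunit genes was called in either direction, 2 of them having an unadjusted p under 0.05.

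The 3 leading rises without RANKL were there again. Mrpl3 had 22.6 and 23.7 RPKM in TMBIM6sh with RANKL, against 15.9 and 15.1 RPKM in NCsh with RANKL (0.55 ± 0.074, SE, adjusted p = 0.000604). Mrpl52 had 47.9 and 51.7 RPKM in TMBIM6sh and 35.6 and 40.2 RPKM in NCsh (0.39, adjusted p = 0.0115). Mrpl4 had 21.4 and 24.5 RPKM in TMBIM6sh and 18.4 and 17.5 RPKM in NCsh (0.34, adjusted p = 0.0109). For each, both TMBIM6sh libraries were above both NCsh libraries. Mrps36, the dehydrogenase subunit, had 21.0 and 23.4 RPKM in TMBIM6sh, against 16.0 and 15.1 RPKM in NCsh (0.49, adjusted p = 0.00288). Named pseudogenes of Mrps36 exist, so tags could be split between copies and its level is uncertain. The same holds for Mrpl23, Mrpl27 and Mrpl48. Mrpl30, homologous to bacterial L30, averaged 42.4 ± 0.0863 RPKM in TMBIM6sh and 32.7 ± 0.106 RPKM in NCsh (SD, n = 2 each; 0.37, adjusted p = 0.0416). Mrpl2, whose bacterial homologue L2 sits by the catalytic centre, averaged 29.7 ± 2.15 RPKM in TMBIM6sh and 23.9 ± 0.676 RPKM in NCsh (SD, n = 2 each; 0.30, adjusted p = 0.0169).

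Of the lower genes, Mrpl18 had 24.8 and 26.0 RPKM in TMBIM6sh with RANKL, against 38.0 and 42.1 RPKM in NCsh with RANKL (-0.64 ± 0.0886, SE, adjusted p = 0.000744). Mrpl17 had 1.93 and 1.62 RPKM in TMBIM6sh and 3.14 and 3.30 RPKM in NCsh (-0.61, adjusted p = 0.00452). Both had no overlap between hairpins, and their 4 NCsh values were above their 4 TMBIM6sh values over the whole design. Mrpl28 averaged 27.8 ± 0.0318 RPKM in TMBIM6sh and 31.7 ± 1.33 RPKM in NCsh (SD, n = 2 each), and its difference was just past the threshold (-0.18, adjusted p = 0.0498). Mrpl10, homologous to the bacterial L10 protein that anchors the stalk where translation factors dock, averaged 14.2 ± 1.89 RPKM in TMBIM6sh and 17.7 ± 1.41 RPKM in NCsh (SD, n = 2 each; -0.30, adjusted p = 0.0338). Mrpl32, a zinc-binding protein that mitochondrial proteases mature before assembly, averaged 18.7 ± 1.07 RPKM in TMBIM6sh and 22.6 ± 0.712 RPKM in NCsh (SD, n = 2 each; -0.26, adjusted p = 0.0162).

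Here too the counts moved when a library was left out. Higher genes numbered 2 without TMBIM6sh library 2 with RANKL (4.97% of all genes) and 3 without NCsh library 1 or library 2 with RANKL (5.26% and 5.7%). Lower genes numbered 2 without NCsh library 1 with RANKL (11.7% of all genes) and 3 without any 1 of the 4 TMBIM6sh libraries (12% to 17.6%). They numbered 8 without either NCsh library without RANKL (21.8%), which enter through the shared spread. The call of Mrpl4 was lost without NCsh library 2 or TMBIM6sh library 2 with RANKL (adjusted p up to 0.0784), that of Mrpl52 without NCsh library 1 or TMBIM6sh library 2 (up to 0.099), that of Mrpl32 without library 1 of either hairpin (up to 0.107), and that of Mrpl2 without either NCsh library or TMBIM6sh library 2 (up to 0.112). The call of Mrpl10 was lost without NCsh library 1 or TMBIM6sh library 2 with RANKL or without either TMBIM6sh library without RANKL (up to 0.205). Those of Mrpl28 and Mrpl30 were lost without either NCsh library with RANKL or any 1 of the 4 TMBIM6sh libraries (up to 0.259 and 0.14).

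**Figure D2:**
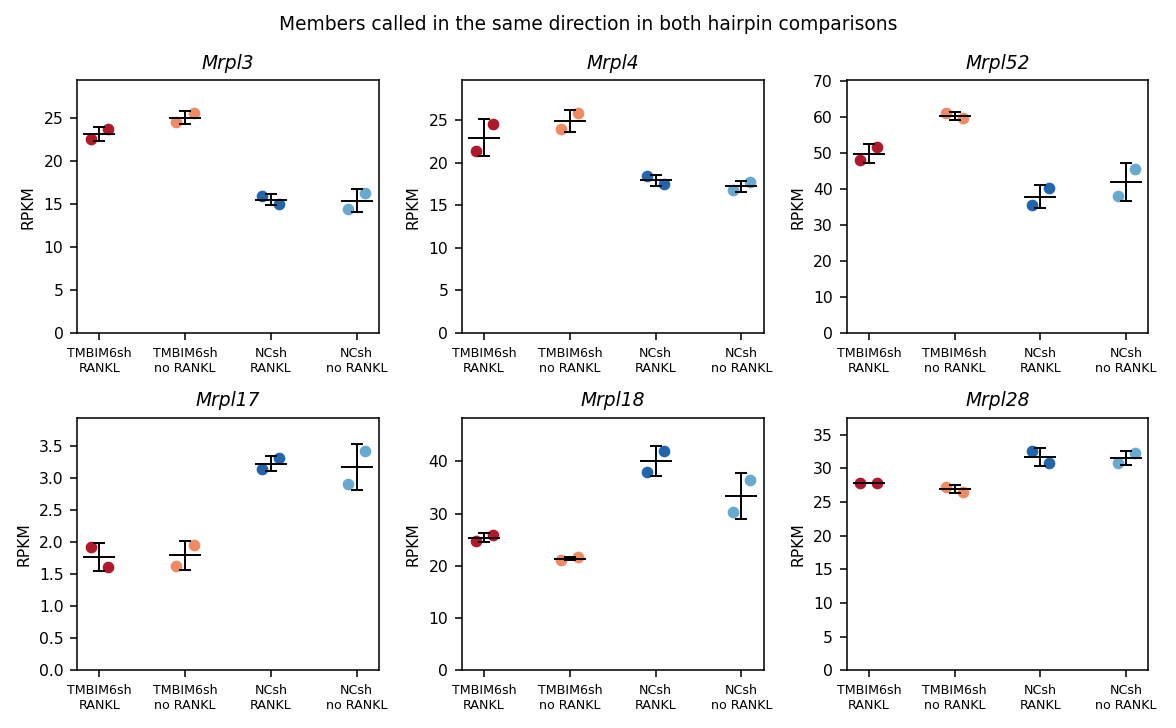
RPKM of the 6 genes called in the same direction in both hairpin comparisons, in each of the 2 libraries of the 4 groups (points), with the group mean and SD (lines, n = 2); axes start at 0. Mrpl3, Mrpl4 and Mrpl52 are higher in the TMBIM6sh groups, and Mrpl17, Mrpl18 and Mrpl28 are lower.

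The 2 hairpin comparisons share no library, so their values can be set side by side. Their calls are not independent, because the spread of each gene was estimated once over all 8 libraries and enters both. Mrpl3, Mrpl4 and Mrpl52 were higher in both, which is 60.0% of the 5 called without RANKL and 50% of the 6 called with it. Mrpl17, Mrpl18 and Mrpl28 were lower in both, 60.0% of each set of 5. Over all genes tested, 63.1% of those higher without RANKL and 73.4% of those higher with it were called in both, and 79.8% and 56.1% of the lower ones. The difference had the same sign in both comparisons for 57 of the 78 genes (73.1%), against 76.9% of all genes tested. The calls of Mrpl3 and Mrpl18 passed the threshold in both comparisons in each of the 15 alternative analyses, as did those of Mrpl4 and Mrpl52 without RANKL and of Mrpl17 and Mrps36 with it.

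**Figure D3:**
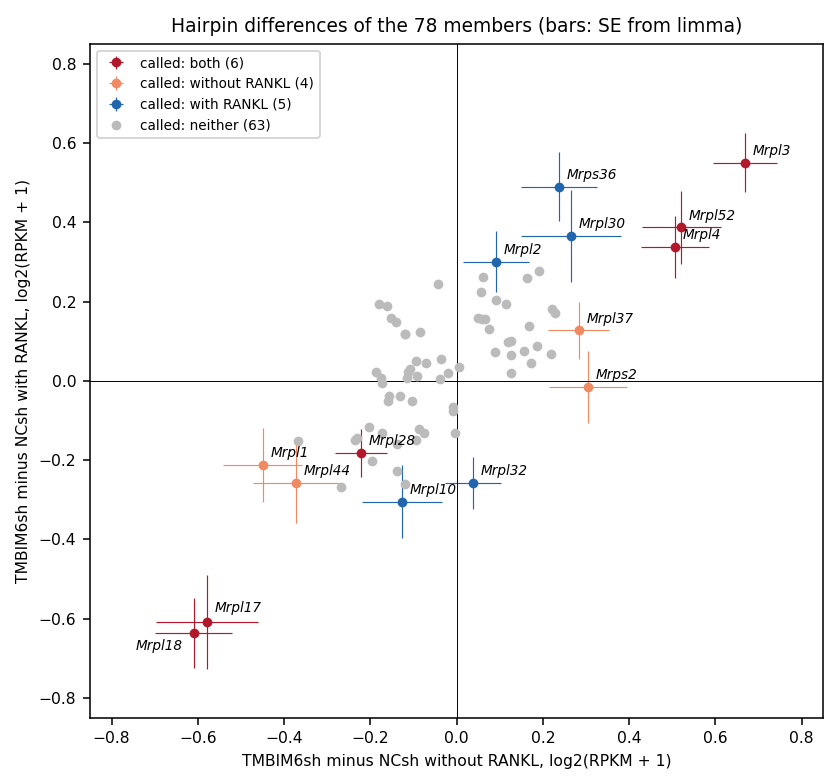
Difference between TMBIM6sh and NCsh libraries of each of the 78 genes on the log2(RPKM + 1) scale, without RANKL (x axis) and with RANKL (y axis), with standard errors from limma (bars) for the 15 genes called in at least 1 comparison. Mrpl3, Mrpl4 and Mrpl52 stand apart at upper right and Mrpl17 and Mrpl18 at lower left, while 63 genes were called in neither.

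Summed marker levels differed between the hairpins too. The summed level of the 9 macrophage markers, most of it Lyz2, was 7503 to 8600 RPKM in the 4 TMBIM6sh libraries and 9203 to 10798 RPKM in the 4 NCsh libraries. This sum therefore says little about the other macrophage markers. The summed neutrophil markers, nearly all of it S100a8, lay at 11.5 to 15.5 RPKM in TMBIM6sh and 22.5 to 28.1 RPKM in NCsh. The summed osteoclast markers, most of it Mmp9 and Acp5, were 134 and 145 RPKM in TMBIM6sh with RANKL, against 98.7 and 108 RPKM in NCsh with RANKL. Without RANKL they were 84.1 and 84.98 RPKM in TMBIM6sh, against 86.6 and 93.2 RPKM in NCsh. The part of these in the differences of the ribosomal protein genes was not tested.

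RANKL itself went with little change in the 78 transcripts. In NCsh libraries 1 gene was higher with RANKL and 0 were lower, while 11% of all genes tested were higher and 3.98% lower. The median difference of the 78 genes was 0.01, against 0.06 over all genes and -0.09 over the cytosolic ribosomal protein genes, and 7 of the 78 had an unadjusted p under 0.05. The 1 gene was Mrps17, homologous to bacterial S17, with 26.1 and 24.5 RPKM in NCsh with RANKL, against 19.7 and 21.4 RPKM in NCsh without RANKL (0.29 ± 0.0734, SE, adjusted p = 0.0278). Its call was lost, which left 0 genes higher, without NCsh library 1 without RANKL or either NCsh library with RANKL (adjusted p up to 0.176), and under median-ratio scaling (0.0572). The largest difference was that of Mrpl47, of the large subunit, which had 7.55 and 8.55 RPKM with RANKL, against 5.43 and 6.91 RPKM without, and did not pass (0.34, adjusted p = 0.0591). Mrps6 (0.29, adjusted p = 0.0667) and Mrpl18 (0.26, adjusted p = 0.0795) did not pass either. Without NCsh library 2 without RANKL 8 of the 78 genes and 9.38% of all genes were called higher, among the 8 Mrpl47, Mrps6 and Mrpl18 (adjusted p = 0.0164, 0.0417 and 0.0146), and without NCsh library 1 without RANKL 0 were higher and 3 lower (8.45% and 4.92% of all genes).

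In TMBIM6sh libraries 4 of the 78 genes were higher with RANKL and 0 lower, against 8.53% and 6.89% of all genes tested. The median difference was 0.08, against 0.02 over all genes and 0.06 over the cytosolic ribosomal protein genes, and 56 of the 78 lay above 0. Mrpl21, homologous to bacterial L21, had 21.3 and 24.7 RPKM in TMBIM6sh with RANKL, against 17.5 and 17.9 RPKM in TMBIM6sh without RANKL (0.35 ± 0.0823, SE, adjusted p = 0.0172). Its span holds a microRNA gene over 64 bases on the same strand, listed at a mean of 0.147 RPKM. Mrpl45, a mitochondria-specific protein that tethers the ribosome to the inner membrane, had 19.6 and 19.4 RPKM with RANKL, against 16.1 and 15.1 RPKM without (0.31, adjusted p = 0.0176). Mrpl12, the stalk protein that recruits translation factors and in human cells also binds the mitochondrial RNA polymerase, had 41.6 and 41.1 RPKM with RANKL, against 30.3 and 36.4 RPKM without (0.31, adjusted p = 0.0413). Mrps18c had 47.0 and 49.0 RPKM with RANKL, against 39.5 and 42.3 RPKM without (0.23, adjusted p = 0.0481). In each of the 4 genes both libraries with RANKL were above both without, as they also were in Mrpl41 and Mrps35, which were not called. Mrps35 (0.37, adjusted p = 0.102) and Mrpl41 (0.33, adjusted p = 0.14) were also among the largest differences and did not pass.

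Fits that left out a library gave differences of 0.252 to 0.456 for Mrpl21, 0.262 to 0.353 for Mrpl45, 0.178 to 0.437 for Mrpl12 and 0.178 to 0.275 for Mrps18c. A group of 1 library has a larger standard error, so a lost call does not show that a single library carried the difference. Each of the calls above was lost in some of these fits. None was made without TMBIM6sh library 1 without RANKL or without TMBIM6sh library 2 with RANKL (0 genes higher in each case, and 4.75% and 4.77% of all genes). There were 2 genes higher without TMBIM6sh library 2 without RANKL, TMBIM6sh library 1 with RANKL or either NCsh library with RANKL (4.66% to 7.39% of all genes). Without NCsh library 1 or library 2 without RANKL, 10 were higher (10.2% and 10.4% of all genes) and 1 lower (8.17% and 8.26%). The highest adjusted p over these was 0.119 for Mrpl21, 0.143 for Mrpl45, 0.297 for Mrpl12 and 0.294 for Mrps18c.

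The difference between the RANKL responses of the hairpins was called for 0 of the 78 genes, 5 of which had an unadjusted p under 0.05. By limma 0% of all genes tested were called higher and 0.00906%, 1 gene, lower. The largest differences of response were 0.38 ± 0.138 for Mrpl58, a ribosome-bound hydrolase that frees stalled chains, 0.35 ± 0.116 for Mrpl21, -0.32 ± 0.128 for Mrps2 and 0.31 ± 0.094 for Mrps18c (SE; adjusted p 0.609 to 0.633). The median over the 78 genes was 0.07, against -0.05 over all genes and 0.16 over the cytosolic ribosomal protein genes, of which 85 of 87 lay above 0 and 0 were called. Mrpl21, called with RANKL in TMBIM6sh and not in NCsh, is thus not shown to respond differently.

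**Figure D4:**
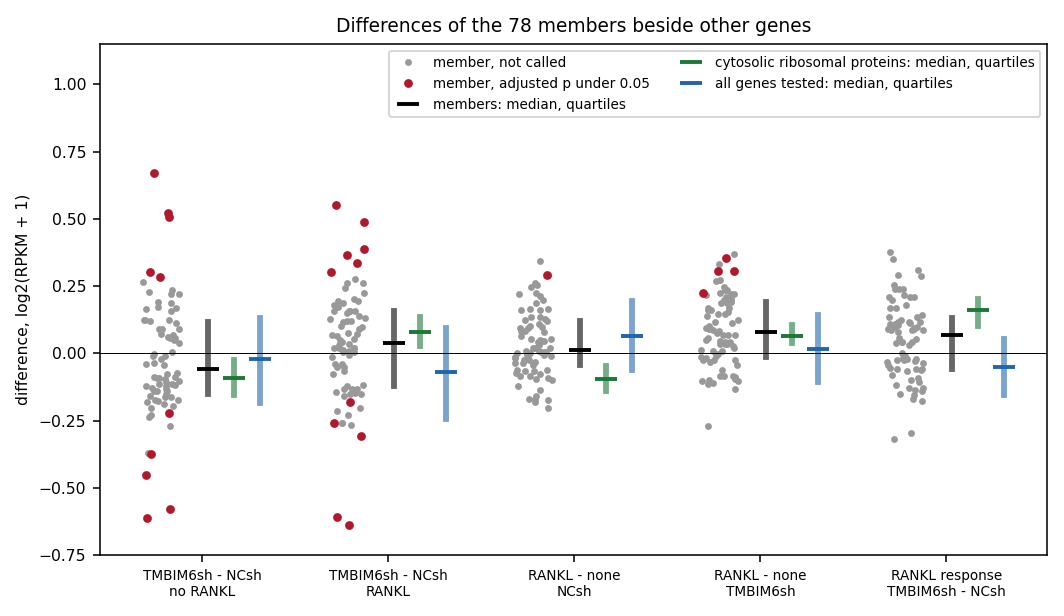
Differences on the log2(RPKM + 1) scale in the 5 comparisons: each of the 78 genes (points, red where the adjusted p was under 0.05), and the median and quartiles of the 78 genes (black), of 87 cytosolic ribosomal protein genes (green) and of all 11040 genes tested (blue). The called genes lie on both sides of 0 in the hairpin comparisons and above 0 in the RANKL comparisons, and no point is red in the difference of responses.

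NCsh without RANKL is the group whose duplicates were farthest apart for these transcripts. Library 2 was above library 1 for 71 of the 78 genes, by a median of 0.22 on the log2 scale, against medians of 0.11 in TMBIM6sh with RANKL, -0.03 in TMBIM6sh without RANKL and 0.04 in NCsh with RANKL. In NCsh without RANKL the gap was 0.31 for the cytosolic ribosomal protein genes, 0.23 for the 1200 other genes of up to 1000 exon bases, 0.12 for the 2622 of over 1000 and up to 2000 bases, -0.03 for the 7140 of over 2000 bases and 0.01 for all genes. Among the 78 genes it was 0.26 for the 33 of up to 1000 bases, 0.19 for the 33 of over 1000 and up to 2000 bases and 0.17 for the 12 of over 2000 bases, so it was there in long members as well as short ones. The comparison of hairpins without RANKL, that of RANKL in NCsh and the difference of responses all use the means of this group. The comparison of hairpins with RANKL and that of RANKL in TMBIM6sh do not. The gap still enters them through the spread of each gene, which was estimated once over all 8 libraries. The part of the gap in the calls of any comparison was not tested.

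**Figure D5:**
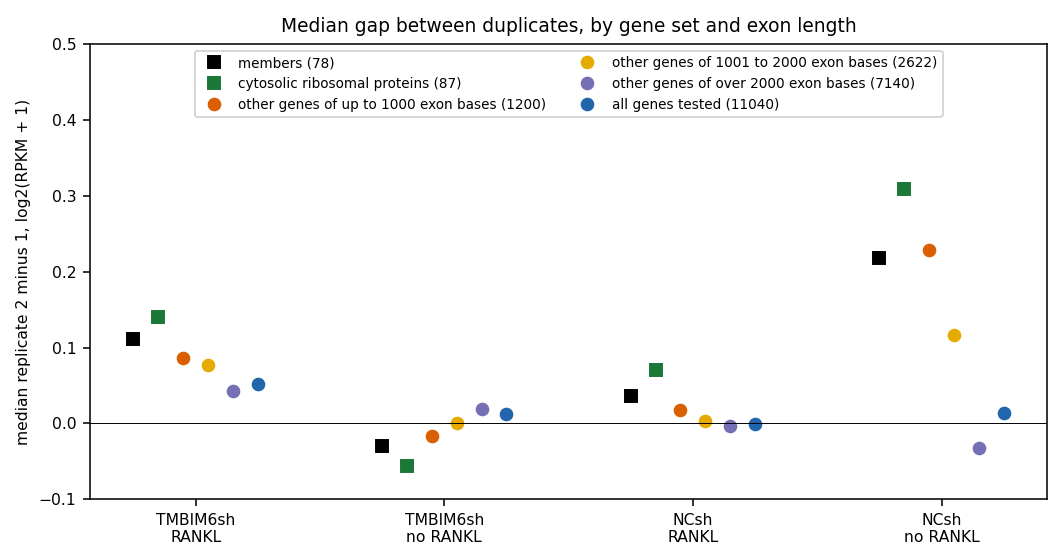
Median difference between replicate 2 and replicate 1 on the log2(RPKM + 1) scale in each group, for the 78 genes, the cytosolic ribosomal protein genes, other genes in 3 classes of exon length and all genes tested. The gap of 0.22 for the 78 genes in NCsh without RANKL is the widest of their 4, and the other genes of up to 1000 exon bases lie close to it.

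Other parts of mitochondrial gene expression were followed with lists of genes. Beside their counts stand the shares of all genes tested, 10.4% higher and 13.8% lower in TMBIM6sh without RANKL and 8.93% and 19.7% with RANKL. Of 5 subunits of the mitochondrial ribosome with other names (Dap3, Ptcd3, Chchd1, Aurkaip1 and Gadd45gip1), 0 were called in any comparison. Between hairpins 1 had an unadjusted p under 0.05 without RANKL and 1 with it. Both times it was Dap3, higher in TMBIM6sh by 0.29 without RANKL (adjusted p = 0.0669 by limma) and by 0.30 with it (0.0528). For RANKL, 1 had an unadjusted p under 0.05 in NCsh and 2 in TMBIM6sh. Of 27 assembly factors, 1 was higher and 1 lower in TMBIM6sh without RANKL, namely the helicase Dhx30 (16.3 ± 0.645 RPKM in TMBIM6sh and 13.7 ± 0.325 RPKM in NCsh, SD, n = 2 each, adjusted p = 0.0277 by limma) and the ribosomal RNA methyltransferase Mrm2 (2.47 ± 0.537 RPKM in TMBIM6sh and 3.65 ± 0.111 RPKM in NCsh, adjusted p = 0.0362). With RANKL it was Rcc1l, higher (9.39 ± 0.286 RPKM in TMBIM6sh and 7.30 ± 0.265 RPKM in NCsh, SD, n = 2 each, adjusted p = 0.0314), and the GTPase Gtpbp10, lower (3.25 ± 0.370 RPKM in TMBIM6sh and 4.87 ± 0.653 RPKM in NCsh, adjusted p = 0.011). Of 13 translation factors, Gfm2, which splits ribosomes for recycling, was the 1 called, and it was higher in both hairpin comparisons. It had 12.7 and 13.5 RPKM in TMBIM6sh without RANKL, against 9.55 and 10.7 RPKM in NCsh without RANKL (0.34, adjusted p = 0.0137), and 14.2 and 13.99 RPKM in TMBIM6sh with RANKL, against 11.2 and 10.0 RPKM in NCsh with RANKL (0.38, adjusted p = 0.00745).

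Of 10 tested genes of mitochondrial transcription and DNA maintenance, Tfb2m, the transcription factor that opens mitochondrial promoters, was lower in TMBIM6sh without RANKL (4.07 ± 0.211 RPKM, against 5.21 ± 0.15 RPKM in NCsh, SD, n = 2 each, adjusted p = 0.0322 by limma). Mgme1, a nuclease of mitochondrial DNA, was lower in TMBIM6sh with RANKL (2.25 ± 0.0983 RPKM, against 3.24 ± 0.0191 RPKM in NCsh, SD, n = 2 each, adjusted p = 0.0455). Of 15 genes of mitochondrial RNA processing, 2 were higher in TMBIM6sh without RANKL (Pnpt1 by 0.29 on the log2 scale, adjusted p = 0.0126, and Ptcd2 by 0.26, adjusted p = 0.0265). With RANKL 3 were higher, namely Slirp by 0.32 (adjusted p = 0.0472), Elac2 by 0.38 (0.032) and Rexo2 by 0.38 (0.0172), and Fastkd3 was lower (-0.41, adjusted p = 0.00583). RANKL went with higher Pnpt1, a ribonuclease, in NCsh (9.55 ± 0.0262 RPKM, against 7.04 ± 0.0445 RPKM without RANKL, SD, n = 2 each, adjusted p = 0.00439) and with lower Fastkd3 in TMBIM6sh (4.24 ± 0.148 RPKM, against 5.70 ± 0.0311 RPKM without RANKL, adjusted p = 0.0196). The shares called were 0% to 20.0% of a list in either direction, over lists of 5 to 27 genes. Over all genes tested they were 8.93% to 19.7% between hairpins. For RANKL they were 11% higher and 3.98% lower in NCsh and 8.53% and 6.89% in TMBIM6sh. With lists this small, the counts are not read as results about the lists.

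Many of the 78 genes share a start region with a neighbour on the other strand. A divergent start within 1000 bases was annotated for 28 of them (35.9%), against 1975 of 11040 tested genes (17.9%). Mrpl46 and Mrps11, whose starts lie 42 bases apart, averaged 11.02 and 14.8 RPKM over all libraries, and neither was called in any comparison (adjusted p of at least 0.246). Mrpl18 starts 238 bases from Tcp1, a subunit of the cytosolic chaperonin. Tcp1 had 64.6 and 59.2 RPKM in TMBIM6sh without RANKL, against 54.7 and 63.1 RPKM in NCsh without RANKL (0.07, adjusted p = 0.578), and 74.0 and 77.5 RPKM in TMBIM6sh with RANKL, against 65.8 and 71.7 RPKM in NCsh with RANKL (0.14, adjusted p = 0.232). It was not called where Mrpl18 was lower. Mrpl2 starts 141 bases from Klc4, a kinesin light chain, and between hairpins with RANKL the pair differed in opposite directions. Klc4 had 12.9 and 12.6 RPKM in TMBIM6sh with RANKL, against 18.5 and 18.9 RPKM in NCsh with RANKL (-0.52, adjusted p = 0.000369), where Mrpl2 was higher. Klc4 was also lower in TMBIM6sh without RANKL (-0.33, adjusted p = 0.00496 by limma), where Mrpl2 was not called (0.09, adjusted p = 0.438). Mrpl51 starts 614 bases from Ncapd2, a condensin subunit. Ncapd2 had 11.9 and 12.4 RPKM in NCsh with RANKL, against 5.81 and 6.09 RPKM in NCsh without RANKL (0.92, adjusted p = 0.000172), while Mrpl51 was not called (-0.01, adjusted p = 0.969). Tags were counted on both strands, so reads from overlapping genes on opposite strands cannot be told apart. Spans of 11 of the 78 genes overlap another gene, and of the called genes Mrpl21 is among them.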

How the data were processed

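The authors used HOMER to make the deposited RPKM table, per the file headers: tags over RefSeq exons of mm10 were counted on both strands, condensed to 1 entry per gene, and divided by exon length and library depth. The unit was read from the command in that header; the column heads say FPKM. HISAT2 and DESeq2 are named without versions or roles in the submitters' processing notes. The low values rise in steps of 1 tag, which gave the depth of each library, and, of 2615 to 2821 values tried in each library, 99.9% to 100% came within 0.1 of a whole tag. The values were analysed as log2(RPKM + 1) with limma 3.58.1 in R 4.3.3, with 1 mean per group over all 8 libraries, an intensity trend, 4 residual degrees of freedom and Benjamini-Hochberg adjustment over the 11040 genes with at least 1 RPKM in at least 2 libraries. The threshold was an adjusted p of 0.05, two-sided. A permutation test of groups of 2 could give no two-sided p under 0.333. The 78 genes and the lists of other mitochondrial genes were chosen with earlier results of these data known.

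Genes named are those called (or those of largest difference), the 6 highest and 6 lowest means, the S18 homologues, Mrpl12, Mrps36 and called genes of the other lists. Divergent neighbours and genes whose promoters are shown were picked after their values were seen. Alternatives were no filter or a 0.5 RPKM filter, a pseudocount of 0.1, median-ratio scaling, no intensity trend, a fit of the compared libraries only, the replicate number as a block, and leaving out each library. The planned NRF1 and YY1 words were shortened to 9 letters, and a planned search for genes with a like pattern over the 4 group means is not reported, as 4 points are too few for a correlation. Subunit and origin of each protein were assigned from textbook knowledge. Coordinates are as in the table (mm10); promoter sequences are from RefSeq (GRCm38.p6).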

Additional observations from a re-analysis of the deposited data

How the results depend on the processing

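No called difference of the 78 genes changed sign in any of the 15 alternatives. This was largely fixed in advance and is no added evidence for the calls. The libraries compared did not overlap in the called genes, so leaving a library out or changing the pseudocount could not turn a sign. The changes of filter, trend, compared libraries and block leave the size of a difference as it was. In TMBIM6sh against NCsh with RANKL, median-ratio scaling gave 12 members higher and 3 lower, and a fit with no intensity trend gave 3 lower. For RANKL in NCsh, members higher numbered 0 without the filter on low values, with median-ratio scaling, without the intensity trend and with the compared libraries only. For RANKL in TMBIM6sh, members higher numbered 1 without the filter and 2 without the trend, and members lower numbered 1 with median-ratio scaling and with the compared libraries only. With the replicate number as a block (replicate block), 2 members were higher with RANKL in NCsh and 1 was lower with RANKL in TMBIM6sh. Deviations of same-numbered libraries from their group means correlated by -0.065 to 0.062 over 6 pairs of groups. No large deviation shared by number was thus seen. A common origin of same-numbered libraries with small effects cannot be told from this.

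Leaving out each library in turn, where the lone library left in a group was assumed to vary like the other groups, moved the counts as follows. Between hairpins without RANKL, 3 to 8 members were higher and 1 to 18 lower, with a median log2 difference of -0.164 to 0.099. Between hairpins with RANKL, 2 to 8 were higher and 2 to 8 lower, with a median of -0.012 to 0.11. With RANKL in NCsh, 0 to 8 were higher and 0 to 3 lower, with a median of -0.08 to 0.109. With RANKL in TMBIM6sh, 0 to 10 were higher and 0 to 1 lower, with a median of 0.042 to 0.136. For the difference of responses, 0 members were called in each case by limma, and the median was -0.065 to 0.17. The causes of these moves were not tested. The calls rest on 2 libraries per group and on 104 to 1372 tags per member and library, and the smallest called difference (Mrpl28 with RANKL, -0.18) lost its call in 12 of the 15 alternatives.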
